A study of Mus musculus with 8 samples.

Results

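KAT7 is the catalytic subunit of a family of histone acetyltransferase complexes, and the genes described here are Kat7 and the 9 genes for the proteins known to assemble with it: Brpf1, Brd1, Brpf3, Jade1, Jade2, Jade3, Ing4, Ing5 and Meaf6. They were found by Entrez identifier in the deposited table of 27179 genes. All 10 were present with 1 row each, and all 10 were among the 13498 genes with enough reads to be tested. RNA came from 8 neurosphere cultures, which are floating clusters grown from dividing neural stem and progenitor cells, taken from C57BL/6 fetuses (E14.5) and kept in proliferation medium. The 4 intact cultures were Kat7+/+NesCreT/+ and the 4 deleted ones Kat7lox/loxNesCreT/+, so both genotypes carried the Cre recombinase transgene driven by Nestin sequences, which is active in neural precursors, and the lox alleles were in the deleted genotype alone. The fetuses came from 6 litters, 3 per genotype, with intact replicates 1 and 2 from a single litter and deleted replicates 3 and 4 from another. Each litter gave fetuses of a single genotype, so the genotypes could not be compared within a litter, and fits that allow for variation between litters stand among the alternatives. The comparison asks how these genes are expressed in cultured neural precursors when Kat7 has been deleted.

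KAT7, also called HBO1, belongs to the MYST family of acetyltransferases and works in complexes with 1 scaffold protein of the BRPF or the JADE type, an ING protein and the small subunit MEAF6. The scaffold guides the substrate: BRPF scaffolds direct KAT7 to histone H3, and JADE scaffolds direct it to histone H4. ING4 and ING5 carry a PHD finger that binds methylated histone H3, and MEAF6 is a shared subunit also found in complexes of other MYST enzymes. BRPF proteins and ING5 likewise serve the relatives KAT6A and KAT6B.

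Library totals ran from 10687817 to 22444359 counts, and 1 read was worth 0.0436 to 0.0918 CPM (counts scaled to library size, per 1e6, with TMM factors). The share of counts from the mitochondrial genome was 18.95% to 23.5% over the intact libraries, and deleted replicates 1 to 4 stood at 29.9%, 18.95%, 17.1% and 34.4%. Of 13 markers of neural stem and progenitor cells, 11 stood at 1 CPM or more in all 8 libraries. The exceptions were Prom1 and Sox1, the latter at 0.190 CPM in deleted replicate 1. Summed markers of microglia stayed at or below 3.71 CPM in every library and those of red blood cells at or below 1.74 CPM. Endothelial markers summed to 3.27 to 6.94 CPM over the intact, against 1.65 to 15.7 CPM in deleted libraries, oligodendrocyte markers to 61.5 to 72.9 and 37.0 to 77.2 CPM, and neuronal markers to 18.0 to 23.3 and 6.48 to 116 CPM. Astrocyte markers summed to 169 to 286 CPM over the intact libraries, against 2172, 222, 583 and 561 CPM in deleted replicates 1 to 4. The 7 markers of mesenchymal and mural cells summed to 1.26 to 1.42 CPM over the intact libraries, against 2.09, 611, 7.52 and 108 CPM in deleted replicates 1 to 4. Most of the last of these was the smooth muscle actin gene Acta2, at 107 CPM in deleted replicate 4, while deleted replicate 2 also held the collagen gene Col3a1 at 334 CPM. The upper neuronal sum was mostly Dcx, at 101 CPM in deleted replicate 2. Of the 35 markers tested over all these lists, edgeR called 3 higher (Aqp4, Aldoc and Acta2) and 4 lower (Neurod1, Elavl3, Gpr17 and Kdr), against 7.90% of all tested genes called in either direction.

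Kat7 itself (Entrez 217127, minus strand of chromosome 11, 95271853 to 95310246 in GRCm38) was lower in every deleted library than in any intact one. Intact replicates 1 to 4 held 85.8, 77.1, 81.0 and 92.1 CPM, and deleted replicates 1 to 4 held 26.4, 0.367, 13.9 and 0.0870 CPM. Deleted replicates 2 and 4 were near 0, while replicates 1 and 3 kept 31.4% and 16.5% of the intact mean. Reads behind these deleted values were 416, 4, 253 and 1, with exact 95% Poisson intervals for the pair of small counts of 1.09 to 10.2 and 0.0253 to 5.57 reads, which cover counting error only. The means were 84.0 ± 6.46 CPM and 10.2 ± 12.6 CPM (SD, n = 4), and with log2 CPM permuted between genotypes (exact, two-sided) p was 0.0286, the lowest value that 70 arrangements can give. The permutation treats all libraries as independent, though each genotype held a pair of littermates. The correlation within a litter was estimated at 0.41 over all genes. Permuting whole litters, 3 per genotype, could not reach a p this low. In the edgeR quasi-likelihood test across all genes the log2 fold change (deleted minus intact) was -3.02 ± 1.10 with a Benjamini-Hochberg adjusted p of 0.128. Leaving out deleted replicates 1 and 3 gave -8.51 with an edgeR adjusted p of 0.000113, a choice of libraries made on the Kat7 reads themselves, and that fit called 8.26% of all tested genes lower. In bulk RNA, fewer cells of a type and less RNA per cell cannot be told apart, so the residual reads do not show whether some cells kept the gene. Which exons lie between the lox sites is not given in the sources used here, so reads could not be assigned to deleted or remaining exons. Deleted replicates 2 and 4, of the same lox genotype, held 4 reads and 1 read over the whole gene. The source of the reads in replicates 1 and 3 was not tested.

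In intact cultures the members lay over a wide range of levels once scaled by the gene length that the authors deposited. Per kilobase, Meaf6 stood at 22.4 ± 1.31 CPM and Ing4 at 22.1 ± 0.303, and their libraries overlapped. Brd1 followed at 17.5 ± 1.56, Brpf1 at 14.6 ± 2.74 and Kat7 at 14.1 ± 1.083, where Brd1 overlapped with Brpf1 and Brpf1 with Kat7. Next came Ing5 at 9.84 ± 0.855, Jade3 at 7.83 ± 0.935 and Jade1 at 7.75 ± 1.18, where Ing5 overlapped with Jade3 and Jade3 with Jade1. Brpf3 at 2.49 ± 0.633 and Jade2 at 0.685 ± 0.0335 (all SD, n = 4) lay apart from their neighbours in the order. The deposited length was 876 bases for Meaf6, against 5211 bases of merged exons in GENCODE M21, and 1617 against 5320 for Ing4, so these levels per kilobase hold for the counted part of the gene. For Kat7 the 2 lengths were 5966 and 5536 bases.

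Across the 10 genes, edgeR called 1 higher in the deleted genotype, Jade2, and 0 lower, against 5.10% of all tested genes called higher and 2.80% called lower. At an unadjusted p under 0.05 the same gene was higher and 2 were lower, Kat7 and Meaf6, against 15.8% higher and 10.4% lower of all tested genes. DESeq2 called 1 lower, Meaf6, where it called 6.59% of all tested genes lower, and limma-voom called 1 lower, Kat7, against 3.49%. The genotypes did not overlap in CPM for 3 of the 10, against 19.9% of all tested genes. Jade2 was the 1 with all deleted libraries above all intact ones, against 10.7% of tested genes, and Kat7 and Meaf6 were the 2 with all below, against 9.21%. Kat7 is the gene that was deleted, so its lower level in these counts follows from the design. Among its partners, Jade2 and Meaf6 alone did not overlap. Fitted values lay above 0 for 4 genes and below 0 for 6, with a median log2 fold change of -0.05, against 0.05 over all tested genes. For 8 of the 10 the SD of log2 CPM was larger in the deleted genotype, as it was for 86.6% of all tested genes, Brpf1 and Brpf3 being the exceptions.

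**Figure D1:**
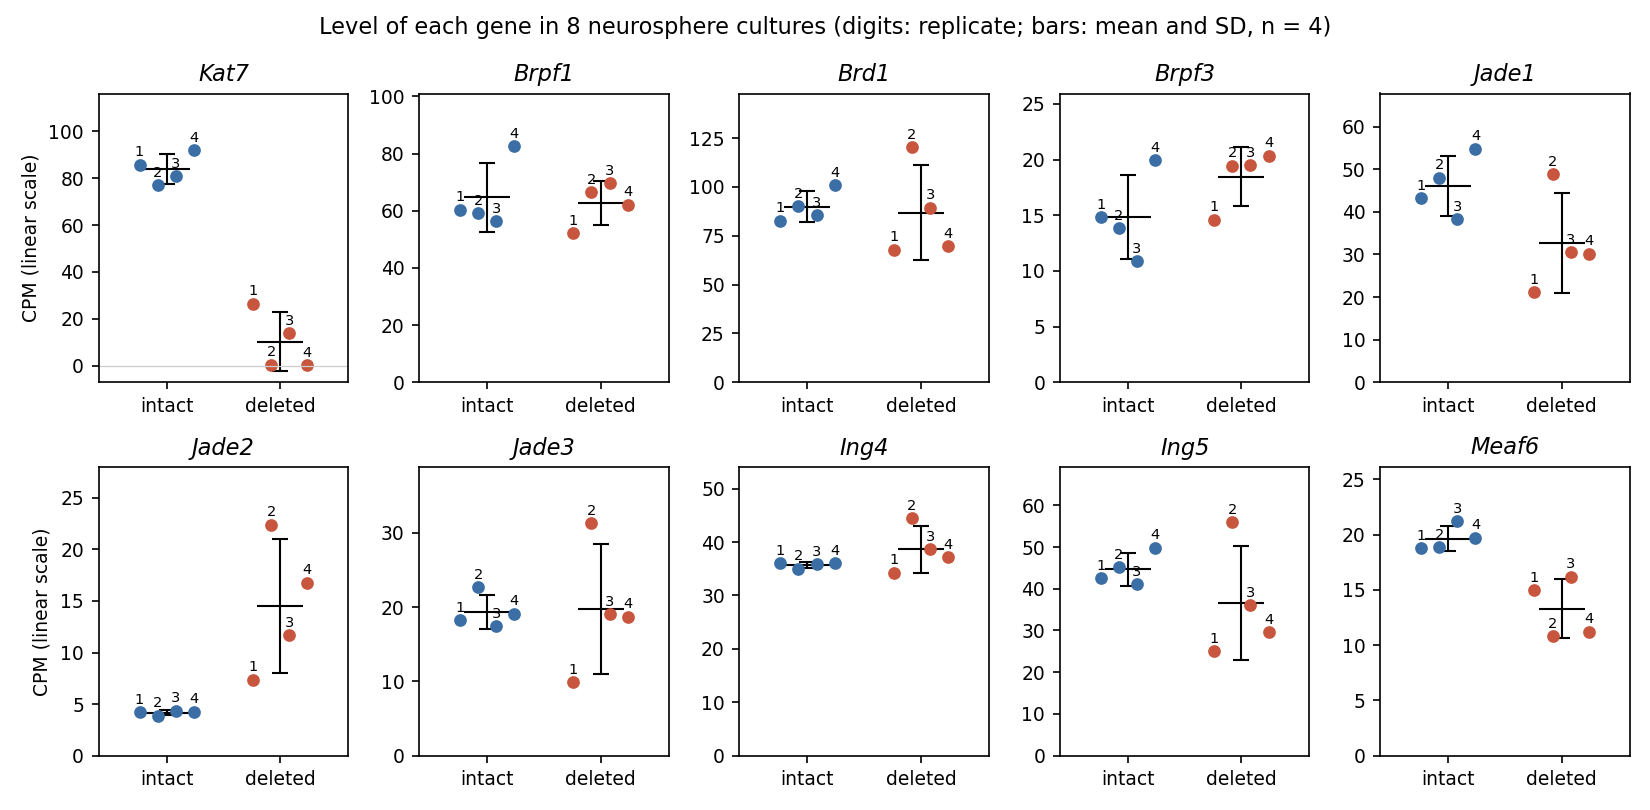
CPM of each of the 10 genes on a linear axis in intact (blue) and deleted (red) cultures, with 1 point per culture, the digit giving the replicate, and the bar the mean and SD of 4 cultures. The genotypes are apart for Kat7 and Meaf6, which are lower in deleted cultures, and for Jade2, which is higher, and deleted replicate 1 is the lowest deleted culture for 8 of the 9 partners of Kat7.

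The BRPF scaffolds, which carry KAT7 and KAT6 enzymes to histone H3, were not called in either direction. Brpf1 (Entrez 78783, chromosome 6) held 60.4, 59.1, 56.4 and 82.7 CPM in intact replicates 1 to 4, against 52.1, 66.6, 69.7 and 62.1 CPM in deleted replicates 1 to 4. The groups overlapped widely, with a log2 fold change of -0.05 ± 0.16 (edgeR adjusted p = 0.878) and a 95% interval of 0.758 to 1.24-fold. Without intact replicate 4, the highest library, the value was 0.07.

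Brd1 (Entrez 223770, chromosome 15), whose protein is also known as BRPF2, had the most reads of the 9 partners in each intact library. It held 82.7, 90.2, 85.4 and 101 CPM in intact replicates 1 to 4, against 67.8, 120, 89.3 and 69.5 CPM in deleted replicates 1 to 4. Deleted replicate 2 was the highest of the 8 libraries and deleted replicates 1 and 4 the lowest, so the deleted cultures lay on both sides of the intact ones. The log2 fold change was -0.05 ± 0.19 (edgeR adjusted p = 0.890), with an interval of 0.716 to 1.30-fold. Left out, deleted replicate 1 turned the sign of both Brpf1 and Brd1, and deleted replicate 4 that of Brd1.

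Brpf3 (Entrez 268936, chromosome 17), the scaffold gene of lowest level in this family, held 14.8, 13.8, 10.9 and 19.9 CPM in intact replicates 1 to 4, against 14.6, 19.5, 19.5 and 20.3 CPM in deleted replicates 1 to 4. Deleted replicates 2 to 4 lay close to the highest intact library, and deleted replicate 1 among the other intact ones. Its log2 fold change was 0.31 ± 0.20 (edgeR adjusted p = 0.363). As a share of the family sum per kilobase, Brpf3 made up 7.13 ± 0.973% in intact and 9.18 ± 1.33% in deleted libraries (SD, n = 4), and the genotypes overlapped. Within each library the ratio of Brpf3 to Brpf1, which does not depend on how libraries are scaled, was 0.143 to 0.182 in intact and 0.208 to 0.243 in deleted cultures, without overlap. The ratio of Brpf3 to Brd1 did overlap, at 0.109 to 0.170 and 0.139 to 0.252, as did that of Brpf1 to Brd1, at 0.758 to 0.949 and 0.641 to 1.04. The BRPF ratios were described once the levels had been seen and carry no test. The family sum per kilobase was 34.5 ± 4.79 and 34.1 ± 6.26 CPM.

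Jade2 (Entrez 76901, minus strand of chromosome 11, 51813448 to 51859011), a scaffold of the type that directs KAT7 to histone H4, rose in the deleted cultures. It held 4.21, 3.89, 4.35 and 4.27 CPM in intact replicates 1 to 4, against 7.35, 22.4, 11.7 and 16.8 CPM in deleted replicates 1 to 4, from 59 to 98 reads per intact and 116 to 244 per deleted library. All deleted cultures lay above all intact ones, and the lowest, replicate 1, was also the one with the most Kat7 left. The mean went from 4.18 ± 0.204 to 14.6 ± 6.49 CPM (SD, n = 4), 3.48-fold, with a log2 fold change of 1.79 ± 0.32 (edgeR adjusted p = 0.0166) and an interval of 2.09 to 5.77-fold. It ranked 304 by p among all tested genes. Jade2 shares no annotated exon bases with another gene in GENCODE M21, and none of its 10840 distinct windows of 100 bases occurs in the transcripts of another gene.

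The rise of Jade2 kept its direction under all 18 other settings, with log2 fold changes of 1.51 to 2.22, but not its call under all. Leaving out intact replicate 1, 2, 3 or 4 gave edgeR adjusted p of 0.0620, 0.0715, 0.0594 and 0.0710, at values of 1.76 to 1.81. In these fits the whole table held 189 to 261 called genes, against 1066 with all libraries. Summed littermates gave an adjusted p of 0.0902 and litter as a random block in limma 0.0732. Among deleted cultures Jade2 ran in the order of replicates 1, 3, 4 and 2, and so did the summed mesenchymal and mural markers. In deleted replicates 1, 3 and 4 that sum was mostly Acta2, at 1.90, 6.92 and 107 CPM. Of these markers Acta2 alone was tested, so the order is largely that of a single gene. In all 4 deleted libraries the marker sum was above the intact range. Without deleted replicate 2 Jade2 was at 1.51 with an edgeR adjusted p of 0.0147, with replicate 4 and its 108 CPM of these markers still in the fit. The part of those markers in the result was not tested.

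Jade1 (Entrez 269424, chromosome 3) and Jade3 (Entrez 382207, chromosome X) encode the other two JADE scaffolds. Jade1 held 43.3, 48.1, 38.3 and 54.8 CPM in intact replicates 1 to 4, against 21.1, 48.9, 30.5 and 30.2 CPM in deleted replicates 1 to 4. Of the deleted cultures 3 lay below every intact one, and replicate 2 lay inside the intact range. The log2 fold change was -0.50 ± 0.24 (edgeR adjusted p = 0.228). Without deleted replicate 2 it was -0.76 with an edgeR adjusted p of 0.0293, so that library decides whether Jade1 is called lower. The same fit called 2182 genes in all, against 1066 with all libraries, and 6.69% of tested genes lower, against 2.80%.

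Jade3 held 18.2, 22.7, 17.4 and 19.1 CPM in intact replicates 1 to 4, against 9.89, 31.3, 19.1 and 18.7 CPM in deleted replicates 1 to 4. Deleted replicate 1 was below and replicate 2 above all intact libraries, with the other two inside their range. The value of 0.03 ± 0.30 (edgeR adjusted p = 0.967) had no settled direction over the settings, from -0.29 to 0.37, and the interval of 0.636 to 1.63-fold is wide.

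The make-up of the JADE family differed between the genotypes in every library. Jade2 made up 4.49%, 3.56%, 5.03% and 3.97% of the summed JADE level per kilobase in intact replicates 1 to 4 and 13.8%, 15.0%, 13.0% and 17.9% in deleted replicates 1 to 4. These shares are ratios within a library, and the deleted cultures were closer to each other on this measure than in CPM. Jade1 took 47.5 ± 3.28% of the sum in intact and 35.4 ± 3.48% in deleted libraries, again without overlap, and Jade3 48.2 ± 3.20% and 49.7 ± 2.96% (SD, n = 4), with overlap. The ratio of Jade2 to Jade1 was 0.0761 to 0.111 in intact and 0.340 to 0.543 in deleted cultures. That of Jade2 to Jade3 was 0.0695 to 0.101 and 0.249 to 0.364, so neither ratio overlapped. The ratio of Jade1 to Jade3 did overlap, at 0.881 to 1.19 in intact and 0.649 to 0.887 in deleted cultures. The summed level was 16.3 ± 1.795 and 15.9 ± 6.52 CPM per kilobase, lowest in deleted replicate 1 at 8.75 and highest in deleted replicate 2 at 24.6. The summed JADE level over the summed BRPF level was 0.424 to 0.539 in intact and 0.320 to 0.589 in deleted cultures, with overlap. These ratios were described after the levels had been seen and carry no test.

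**Figure D2:**
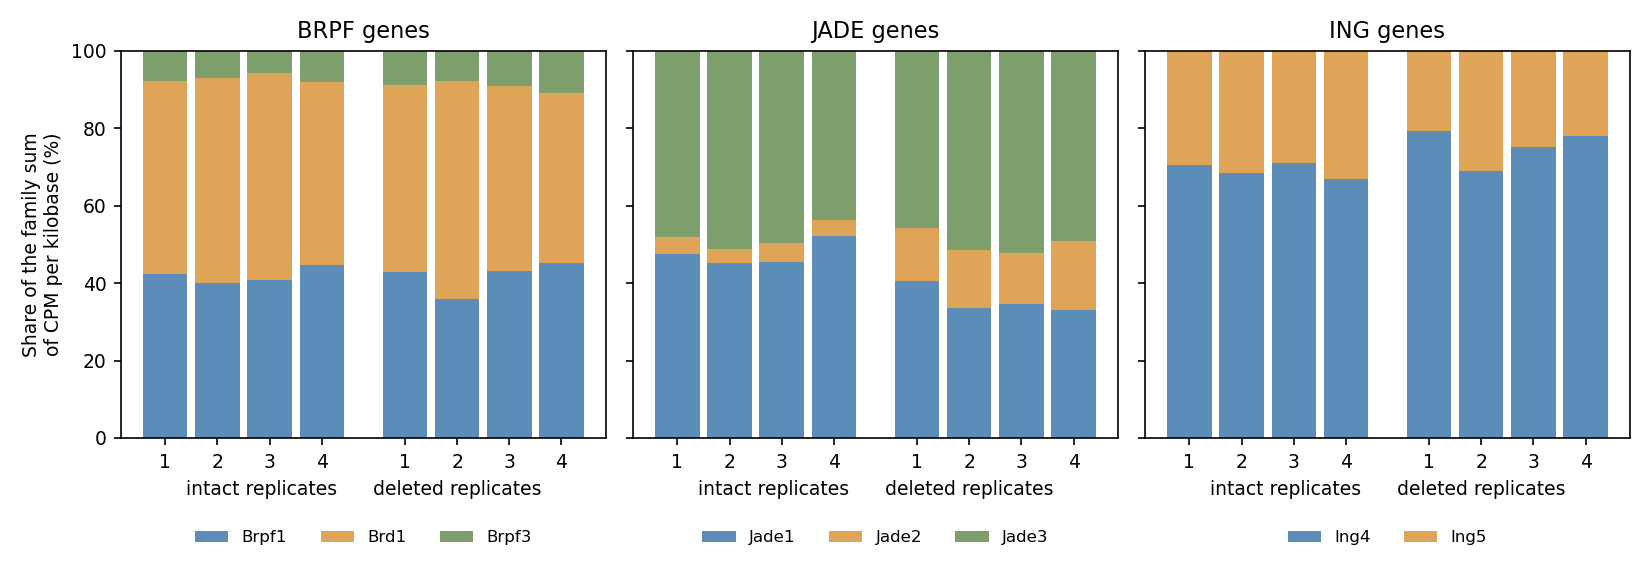
Share of each gene in the summed CPM per kilobase of its family (y axis, percent) in the 8 cultures (x axis, replicates by genotype), for BRPF, JADE and ING genes. Jade2 takes 3.56% to 5.03% of the JADE bar in intact and 13.0% to 17.9% in deleted cultures, and Jade1 takes less in every deleted culture than in any intact one.

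Ing4 and Ing5 encode the PHD finger subunits, which read histone methylation. Ing4 (Entrez 28019, chromosome 6) was the steadiest gene of the group, at 36.0, 35.0, 35.9 and 36.0 CPM in intact replicates 1 to 4, against 34.2, 44.5, 38.6 and 37.1 CPM in deleted replicates 1 to 4. Deleted replicates 2 to 4 lay above the intact range and replicate 1 below it. The log2 fold change was 0.11 ± 0.11 (edgeR adjusted p = 0.556), with an interval of 0.907 to 1.29-fold, and it was -0.02 when libraries were scaled by their totals. In GENCODE M21, 34.9% of the exon bases of Ing4 are shared with Gm44597 on the same strand, so part of its reads could belong to that transcript.

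Ing5 (Entrez 66262, chromosome 1) held 42.5, 45.2, 41.0 and 49.9 CPM in intact replicates 1 to 4, against 25.1, 56.0, 36.0 and 29.6 CPM in deleted replicates 1 to 4. As for Jade1, 3 deleted cultures lay below every intact one, but replicate 2 was above them all. The log2 fold change was -0.29 ± 0.23 (edgeR adjusted p = 0.471), and -0.56 with an edgeR adjusted p of 0.0394 without deleted replicate 2, in the fit with 2182 calls. Ing4 took 69.2 ± 1.87% of the summed ING4 and ING5 gene level per kilobase in intact and 75.3 ± 4.53% in deleted libraries (SD, n = 4). The share in deleted replicate 2, 69.1%, was inside the intact range, and those of deleted replicates 1, 3 and 4 were above it.

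Meaf6 (Entrez 70088, plus strand of chromosome 4, 125085113 to 125113238), the small subunit also found in complexes of other MYST enzymes, was below the intact range in every deleted culture but missed the threshold. It held 18.7, 18.8, 21.2 and 19.7 CPM in intact replicates 1 to 4, against 15.0, 10.8, 16.2 and 11.2 CPM in deleted replicates 1 to 4, from 118 to 452 reads. The lowest values were in deleted replicates 2 and 4, the cultures with the fewest Kat7 reads. The mean was 19.6 ± 1.15 and 13.3 ± 2.68 CPM (SD, n = 4), or 67.8% of intact, with a log2 fold change of -0.56 ± 0.17. The unadjusted p was 0.00826 and the edgeR adjusted p 0.0725, while DESeq2 gave an adjusted p of 0.0187. Without deleted replicates 1 and 3 the value was -0.83 with an edgeR adjusted p of 0.0101, in the fit that called 8.26% of genes lower. Over the 18 other settings it ran from -0.83 to -0.47 and the adjusted p from 0.0101 to 0.183. No exon bases of Meaf6 are shared with another annotated gene.

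The sequences just upstream of the start of Kat7 and Meaf6 are shown because these are the 2 members that lay below the intact range in every deleted library. They come from RefSeq (GRCm38.p6), read 5′ to 3′ on the strand of the gene, and capitals mark CG pairs. The stretch for Kat7 is chr11:95310247-95310496 on the minus strand, 250 bases with 8 CG pairs, and that for Meaf6 is chr4:125084884-125085112 on the plus strand, 229 bases with 22 CG pairs.
Kat7: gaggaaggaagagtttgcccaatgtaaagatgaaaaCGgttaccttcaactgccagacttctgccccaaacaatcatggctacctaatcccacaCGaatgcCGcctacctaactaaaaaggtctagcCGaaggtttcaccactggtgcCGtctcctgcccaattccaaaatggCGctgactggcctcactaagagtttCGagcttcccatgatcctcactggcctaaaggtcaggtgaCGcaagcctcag
Meaf6: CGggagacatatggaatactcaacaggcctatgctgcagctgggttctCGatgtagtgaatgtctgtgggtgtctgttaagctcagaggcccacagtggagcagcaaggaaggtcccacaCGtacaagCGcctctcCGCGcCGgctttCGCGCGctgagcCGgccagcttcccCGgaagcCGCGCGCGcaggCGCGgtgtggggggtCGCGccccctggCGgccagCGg

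In the printed stretches the CG pairs of Meaf6 gather toward the start, while those of Kat7 are scattered. The full window of Kat7 held 14 CG pairs against 8 in the printed stretch, the rest lying in the 50 bases after the start. CG pairs of Kat7 are thus also densest at its start. Of the 10 genes, 9 had windows in the RefSeq promoter table, 12 in all, each running from 250 bases before to 50 after a start; Jade2 had none. These windows held 14 to 40 CG pairs, the lowest in Kat7 and in 1 of the 4 windows of Jade1, against a median of 7 over the table's 32851 windows, of which 36.3% held 14 or more. The letters GGGCGG, searched on both strands, were in 10 of the 12 windows and in 35.7% of all windows, Kat7 and Meaf6 being the genes without them. CCGGAA was in 5 of the 12 windows, those of Kat7 and Meaf6 among them, and in 14.9% of all windows. In Kat7 it lies in the 50 bases after the start, beyond the printed stretch. CCAAT was in 3 of the 12 windows and in 37.4% of all windows, and TATAAA in 0 and 13.6%. The 4 windows of Jade1 lie near each other, and these matches are a description of the letters.

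The 9 partners did not move as one in the deleted cultures. Deleted replicate 1 had the lowest CPM of the 4 deleted libraries for 8 of the 9 partners, all but Meaf6, and deleted replicate 2 the highest for 6, namely Brd1, Jade1, Jade2, Jade3, Ing4 and Ing5. Summed over the partners, intact libraries held 311 to 387 CPM and deleted replicates 1 to 4 held 247, 420, 331 and 295 CPM. Replicate 2 was above the intact range, replicates 1 and 4 below it, and these last 2 had the highest mitochondrial share, at 29.9% and 34.4%. Summed astrocyte markers were highest in replicate 1 and summed mesenchymal and mural markers in replicate 2. The astrocyte sum in replicate 1 was mostly Aldoc, at 1232 CPM, and Slc1a2, at 540 CPM. Aldh1l1, Gja1 and Sox9, unlike the other astrocyte markers, were higher in another deleted replicate. The part of the mitochondrial share and of these markers in the partners' levels was not tested. Without deleted replicates 1 and 4, Jade2 stood at 2.00 with an edgeR adjusted p of 0.0108 and Meaf6 at -0.55 with 0.108.

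**Figure D3:**
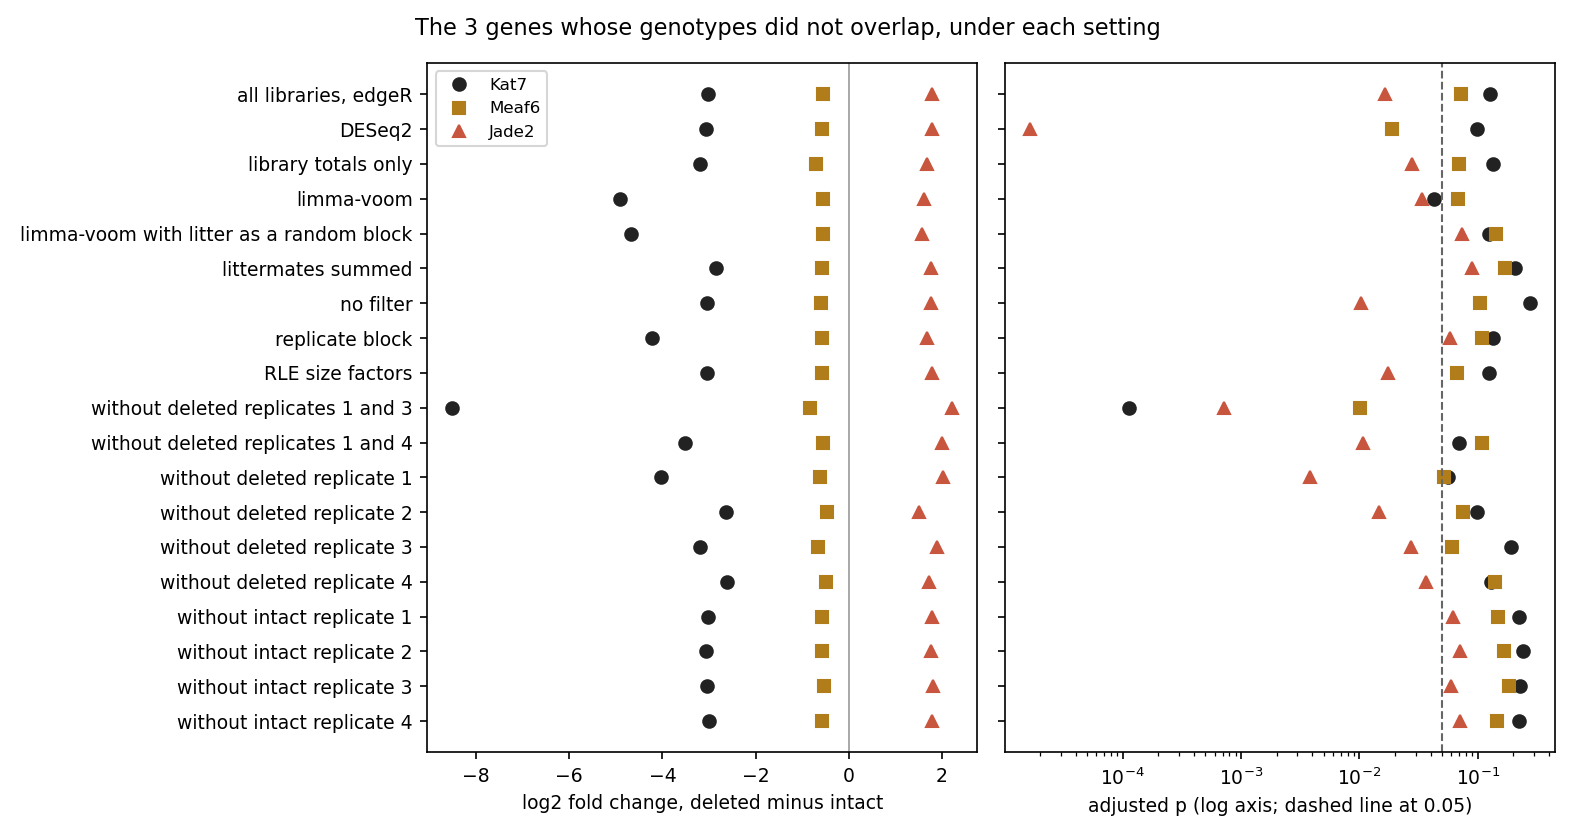
Log2 fold change (left, deleted minus intact) and adjusted p (right, log axis, dashed line at 0.05) of Kat7, Meaf6 and Jade2 under the edgeR fit of all libraries and 18 other settings (rows). Jade2 lies between 1.51 and 2.22 throughout, while its adjusted p moves to the right of the line when any intact library is left out, with summed littermates, with litter as a random block and with the replicate block.

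Genes of related complexes were examined from lists of known subunits. Together they held 26 genes, all tested, of which edgeR called 0 higher and 1 lower, against 7.90% of all tested genes called in either direction. At an unadjusted p under 0.05, 1 was higher and 2 lower, against 15.8% higher and 10.4% lower of all tested genes. Kat6b was the higher gene, and Yeats4 and Orc1 were the lower ones. Among the 4 other MYST acetyltransferase genes Kat6a was the most abundant, at 165 ± 13.9 and 159 ± 27.8 CPM (log2 fold change -0.06 ± 0.15, edgeR adjusted p = 0.8287). Kat6b, which encodes another enzyme of the BRPF complexes, held 24.02, 19.0, 14.4 and 22.9 CPM in intact replicates 1 to 4, against 24.98, 52.8, 26.8 and 28.9 CPM in deleted replicates 1 to 4. All deleted cultures were above all intact ones, by a wide margin in replicate 2 alone, and the value of 0.73 ± 0.27 had an edgeR adjusted p of 0.130. It was 0.42 without deleted replicate 2, and 1.02 with an edgeR adjusted p of 0.0476 without deleted replicates 1 and 3, a fit that called 8.41% of tested genes higher.

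Of the 3 other ING genes, Ing1 was the most abundant, at 43.9 ± 0.894 and 46.2 ± 8.85 CPM (0.07 ± 0.15, edgeR adjusted p = 0.793), and none of the 3 had an unadjusted p under 0.05 in edgeR. The TIP60 complex, built around the MYST enzyme KAT5 and also holding MEAF6, had 17 listed genes with a median log2 fold change of -0.09, against 0.05 over all tested genes. Its called gene was Yeats4, a reader of acetylated histones, which fell from 55.6 ± 2.32 to 40.5 ± 2.56 CPM (SD, n = 4; -0.46 ± 0.10, edgeR adjusted p = 0.0311). Yeats4 held 58.2, 55.3, 56.3 and 52.6 CPM in intact replicates 1 to 4, against 37.7, 43.7, 39.5 and 41.2 CPM in deleted replicates 1 to 4, without overlap and with a similar spread in both genotypes. Its call was lost without any 1 intact library (adjusted p up to 0.108), without deleted replicate 3 (0.0639) or 4 (0.0526), and under other settings given in the closing section. Among 4 genes of origin licensing whose proteins KAT7 is known to contact, all 4 were fitted below 0. Their median was -0.27, against 0.05 over all tested genes. Orc1 alone had all deleted libraries below all intact ones, as did 9.21% of all tested genes. Cdt1, Gmnn and Mcm2 each had a deleted library above every intact one. Mcm2 was the most abundant, at 161 ± 4.68 and 131 ± 47.6 CPM (-0.30 ± 0.24, edgeR adjusted p = 0.462), and Orc1 stood at -0.43 ± 0.17 (0.151).

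**Figure D4:**
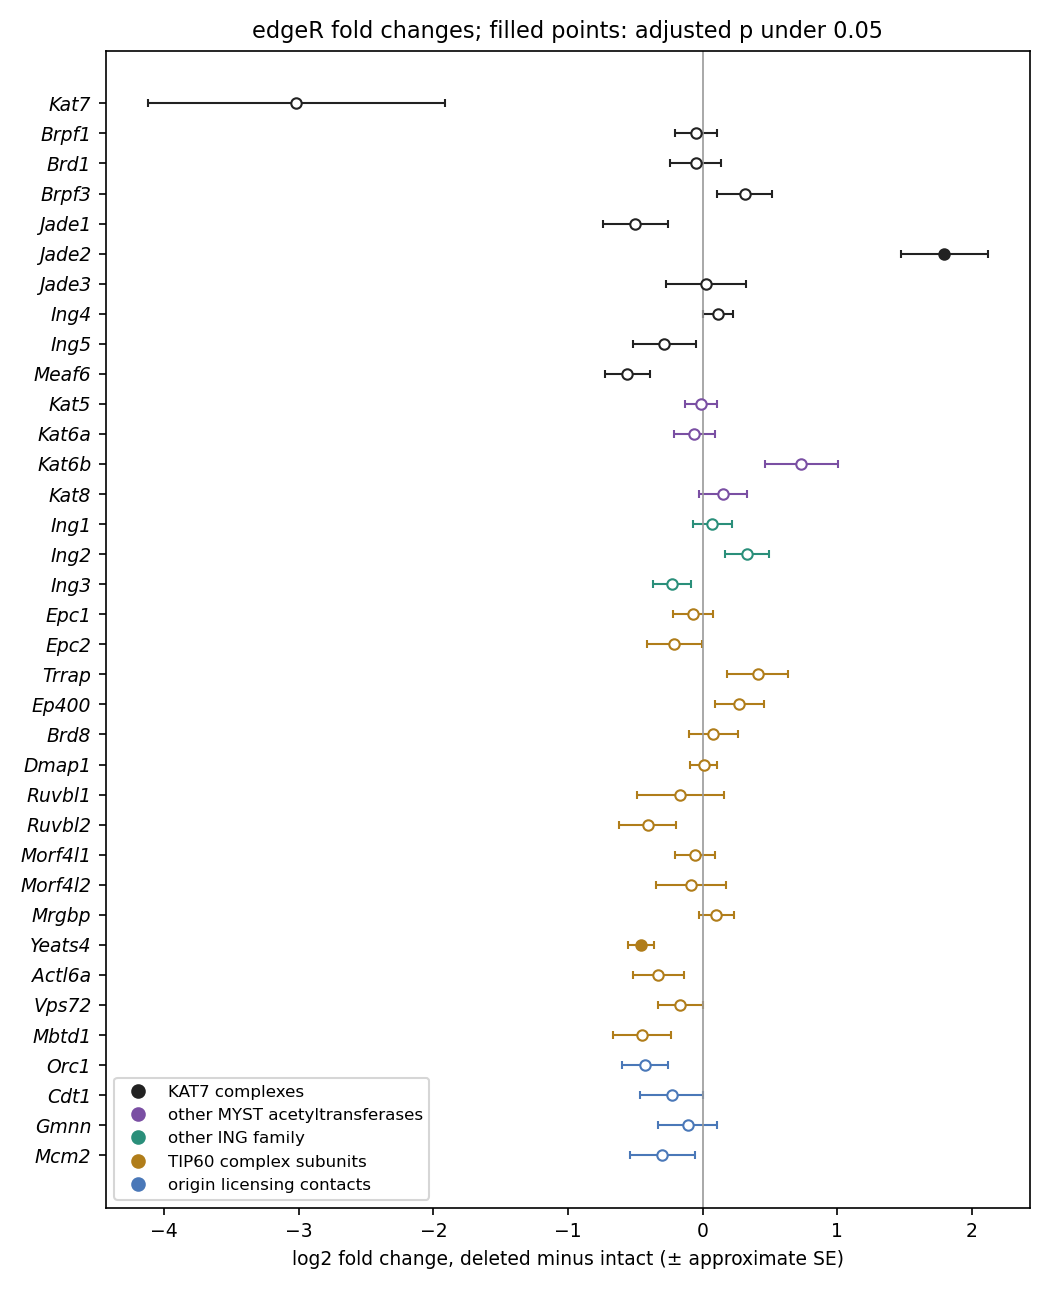
Log2 fold change (x axis, deleted minus intact) with its approximate standard error for the 10 genes of KAT7 complexes (black) and the 26 genes of the other lists (colours), from edgeR with 4 libraries a genotype. The filled points, with an adjusted p under 0.05, are Jade2 at 1.79 and Yeats4 at -0.46, and Kat7 at -3.02 has the longest error bar of the complex genes.

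Genes whose profile over the 8 libraries lay nearest to that of Kat7 were found by the root mean square difference of centred log2 CPM among 10291 genes with an intact mean of at least 5 CPM. They were Flrt2, an adhesion protein of the FLRT family, at 0.69, Aff2 at 0.72, the extracellular matrix gene Hmcn1 at 0.82, Armh4 at 0.83 and the receptor phosphatase gene Ptprk at 0.85, against a median of 3.31. Flrt2 held 13.5, 15.4, 13.7 and 13.4 CPM in intact replicates 1 to 4, against 8.05, 0.0918, 4.28 and 0 CPM in deleted replicates 1 to 4, where 0 reads allow up to 0.261 CPM (3 reads). Hmcn1 held 70.5, 74.3, 37.9 and 71.6 CPM in intact replicates 1 to 4, against 40.2, 0.826, 45.3 and 0.174 CPM in deleted replicates 1 to 4. All 5 were nearly absent from deleted replicates 2 and 4, the libraries with 4 reads and 1 read of Kat7, and were kept in part or in full in replicates 1 and 3. They were chosen for this pattern over the same 8 libraries, so it is a description with no test.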

How the data were processed

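Gene counts from 8 neurosphere libraries, 4 per genotype, were analysed. The deposited table gives unnormalised counts for each Entrez gene, beside a gene length in bases. Per the labels' protocols, RNA was purified on RNeasy columns and TruSeq libraries were sequenced from one end for 100 bases. The tools named are featureCounts and CASAVA 1.8.2, with the build mm10, per the submitters' processing notes. The aligner, and whether counting used strand, are not given in the sources used here, so a gene cannot be told apart from an antisense partner. Brpf1, Brpf3 and Jade1 each share under 5% of exon bases with antisense transcripts.

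Symbols came from a RefSeq table of GRCm38.p6 by Entrez identifier (25275 of 27179 matched), exons from GENCODE M21. The test was that of edgeR 4.0.16 (R 4.3.3): filterByExpr with a minimum count of 10, TMM, robust dispersions, quasi-likelihood F test, no covariate, with calls where the Benjamini-Hochberg adjusted p was below 0.05. A standard error is the size of the log2 fold change divided by the root of F. Fold changes used a prior count of 0.125, log2 CPM one of 2. Intervals are at 95%. On simulated counts for 13337 genes, the test recovered 34% of 2-fold and 81% of 4-fold changes in the right direction, with 9 false calls. These rates hold for the simulated counts. In the measured counts the SD of log2 CPM was larger in the deleted genotype for 86.6% of tested genes. Each genotype also held a pair of littermates, with a correlation within a litter estimated at 0.41. The rates under such unequal spread and litter correlation were not tested.

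Alternatives were DESeq2 1.42.0, limma-voom (limma 3.58.1), other scalings, no filter, litter as a block or summed, the replicate number as a block, and each library left out. Leaving out deleted replicates 1 and 3, which kept most Kat7 reads, or 1 and 4, with the highest mitochondrial share, was chosen after seeing the data. The members and lists were chosen with earlier results of these data known. The naming rule took all members, the called or else most abundant gene of each list, 3 protein-coding neighbours of Kat7 on each side and the 5 nearest profiles. Kat6b and Orc1 were named after their values were seen.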

Additional observations from a re-analysis of the deposited data

Results flagged for a closer look

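Among 19 named genes, each examined in both genotypes, 5 groups of 4 cultures held a sample far from the other three. Chance flags about 1 group in 20. Brpf1 in intact replicate 4 stood at 82.7 CPM, against 60.4 CPM in the next library. Brpf3 in deleted replicate 1 stood at 14.6 CPM, below 19.5 CPM in the next. Ing4 in intact replicate 2 stood at 34.98 CPM, below 35.9 CPM in the next, while the other three lay close together. Kat6b in deleted replicate 2 stood at 52.8 CPM, against 28.9 CPM in the next. Spop, a neighbour of Kat7, stood at 62.4 CPM in deleted replicate 2, against 42.7 CPM in the next.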

How the results depend on the processing

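Jade2 and Kat7 kept their direction under all 18 alternatives. Jade2 lost its call in 7 of them, the replicate block (log2 fold change 1.69, adjusted p = 0.0585) included. No alternative called another member higher, so the count of members called higher was 0 with litter as a random block, with littermates summed and with the replicate block, and 0 to 1 without single libraries. Members called lower were 1 with DESeq2 (Meaf6), 1 with limma-voom (Kat7, -4.92) and 2 without deleted replicates 1 and 3 (Kat7, -8.51, and Meaf6). They were 0 to 2 without single libraries, the 2 being Jade1 and Ing5 without deleted replicate 2. Kat7 was called in none of the fits without a single library, at -4.03 to -2.62 with edgeR adjusted p of 0.0562 to 0.240. Listed pathway genes called were 0 with litter as a random block, littermates summed, no filter and the replicate block, 1 without deleted replicates 1 and 3 (Kat6b in place of Yeats4), and 0 to 1 without single libraries. Over all genes, 1066 were called, against 2200 with DESeq2, 673 with library totals only, 414 with litter as a random block, 193 with littermates summed, 319 with the replicate block, 2299 without deleted replicates 1 and 3, and 189 to 2182 without single libraries. Library totals shifted the median over all genes by -0.14 (log2) and the calls from 688 higher and 378 lower to 309 and 364.

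Several values changed sign, the largest in size being those of Ing5 and Mcm2, at -0.29 and -0.30 with all libraries. Without deleted replicates 1 and 4 the values were 0.20 for Brd1, 0.053 for Brpf1, 0.017 for Ing5, 0.077 for Kat6a, 0.069 for Mcm2 and 0.14 for Fam117a. Without replicates 1 and 3 they were 0.077 for Brd1 and 0.076 for Fam117a, which was 0.20 with littermates summed. With library totals they were -0.049 for Ing1, -0.018 for Ing4 and -0.082 for Jade3. Jade3 was also at -0.12 with limma-voom, -0.13 with litter as a random block, -0.0031 with no filter and -0.072 with the replicate block. Without single libraries the ranges were -0.25 to 0.049 for Brd1, -0.11 to 0.071 for Brpf1, -0.83 to 0.20 for Fam117a, -0.033 to 0.18 for Ing1, -0.29 to 0.25 for Jade3 and -0.15 to 0.048 for Kat6a. The causes were not tested. Same-numbered cultures of the 2 genotypes came from different litters, so the numbers were not taken as pairs in the main fit. Deviations of same-numbered cultures from the genotype means correlated across genes at 0.0961, 0.221, 0.110 and 0.331 for replicates 1 to 4. Of the 4 numbers, 2 were best matched to themselves. All 4 correlations were above 0, so they cannot show that the numbers are unrelated.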

Other observations

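The 3 nearest protein-coding genes of the RefSeq gene table on each side of Kat7 on chromosome 11 were examined. On the side of lower coordinates Tac4, 2.59 kb away, stood at 7, 5, 4 and 12 reads in intact and 1, 0, 1 and 3 reads in deleted replicates 1 to 4, and Dlx4 and Dlx3 at 0 or 1 read in every library. None of the 3 had enough reads to be tested. On the other side Fam117a, 26.8 kb away, stood at 2.46 ± 0.593 and 2.24 ± 2.08 CPM (log2 fold change -0.15 ± 0.67, edgeR adjusted p = 0.912). Slc35b1, a nucleotide sugar transporter gene, stood at 54.3 ± 3.10 and 60.5 ± 12.6 CPM (0.16 ± 0.15, edgeR adjusted p = 0.545). Spop, an adaptor of a ubiquitin ligase, held 28.9, 30.3, 31.5 and 36.8 CPM in intact replicates 1 to 4, against 39.8, 62.4, 40.8 and 42.7 CPM in deleted replicates 1 to 4 (n = 4 each, log2 fold change 0.54 ± 0.17, edgeR adjusted p = 0.0860). Its genotypes did not overlap, and 10.7% of all tested genes likewise had all deleted above all intact libraries. DESeq2 called Spop (adjusted p = 0.0446), among 1311 of 13498 genes that it called higher. Without deleted replicates 1 and 3, a choice made on the Kat7 reads, edgeR called Spop too (adjusted p = 0.0351). That fit called 8.41% of tested genes higher. In deleted replicates 2 and 4, where Kat7 was near 0, Slc35b1 stood at 79.0 and 53.4 CPM.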
